A study of Caenorhabditis elegans with 6 samples.

Results

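The transcripts of 6 *Caenorhabditis elegans* genes of the mitochondrial unfolded protein response were followed in wild-type animals and *nhr-49(nr2041)* mutants: the chaperones *hsp-6* and *hsp-60*, the protease *spg-7*, and the regulators *atfs-1*, *ubl-5* and *dve-1*. They were taken by symbol from a table of 46739 genes. RPKM, the unit of the table, scales the reads of a gene by its length and by the size of the library. All 6 were among the 13965 genes tested, which had to reach 1 RPKM in 3 or more libraries, and each was above that level in every library of both genotypes.

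None of the 6 transcripts passed the test between the genotypes. *hsp-60* averaged 85.3% of its wild-type RPKM in the mutants, *spg-7* 95.3%, *hsp-6* 98.5%, *atfs-1* 113%, *dve-1* 113% and *ubl-5* 126%. The standard deviation among the mutant libraries exceeded the difference between the genotype means for every one of them except *dve-1*, and 1 mutant library had the lowest *hsp-6*, *hsp-60* and *spg-7* of all 6 libraries together with the highest *atfs-1*, *ubl-5* and *dve-1*. In the mutants 2 of 127 other tested genes were higher, against 3.32% of all genes tested. These 127 came from lists of mitochondrial import, folding, translation, dynamics and stress signalling and of published ATFS-1 targets. The 2 were *clec-4* and *lys-2*, which encode secreted proteins and came from the list of targets. That list was chosen with earlier results of these data known.

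The mitochondrial unfolded protein response is a transcriptional program that is switched on when proteins fail to be imported or folded in mitochondria. ATFS-1, a bZIP transcription factor, carries both a mitochondrial and a nuclear targeting sequence. In healthy mitochondria it is imported and degraded, and when import falters it enters the nucleus, where genes for chaperones and proteases are induced. In worms the promoters of *hsp-6* and *hsp-60* are the standard reporters of this response, whose known triggers include loss of respiratory chain subunits and loss of the protease SPG-7. NHR-49 is a nuclear hormone receptor that controls genes of fatty acid desaturation and of fatty acid oxidation, and much of the oxidation is carried out in mitochondria.

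Both genotypes were grown at 20 °C on HT115 bacteria carrying the empty RNAi vector (EV RNAi), so the controls and the mutants shared the same food and no gene was knocked down. The wild type was strain PMD121 and the mutant, a partial deletion of *nhr-49*, was strain PMD122. Each genotype is therefore 1 strain, kept as homozygous F2 progeny from crosses of N2 with STE68. Polyadenylated RNA came from whole L4 larvae in 3 biological replicates per genotype, so the values are averages over all tissues, in which fewer cells of a type and less RNA per cell cannot be told apart.

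The library totals implied by the RPKM values were 24523159 to 30183162 reads. *nhr-49* itself ran from 37.8 to 40.8 RPKM in the wild-type libraries and from 22.1 to 26.1 RPKM in the mutants. Its log2 fold change was −0.65 (SE 0.11, limma adjusted p = 0.0164), and every mutant library was below every wild-type library. The call was lost without any 1 of the wild-type libraries or mutant replicate 2, with adjusted p of 0.0551 to 0.093 (limma). One library of each genotype, wild-type replicate 2 and mutant replicate 1, separated from the remaining 4 in a principal component analysis, at −32.0 and −19.3 on component 2 against 4.85 to 24.1. Fold changes of the 6 genes and medians of the mitochondrial lists are given with and without them where they move. Of the 7 tissue marker lists, 3 had mean log2(RPKM + 1) values that did not overlap between the genotypes. Body wall muscle was at 8.51, 8.55 and 8.5 in the wild type and 7.85, 8.43 and 8.28 in mutant replicates 1, 2 and 3. Of its 10 genes, 8 were lower in every mutant library than in any wild-type library, against 3.78% of all genes tested, and 0 passed limma. The median log2 fold change of these muscle genes was −0.44 with all libraries, −0.16 without mutant replicate 1 and −0.14 without wild-type replicate 2 as well. Intestine was at 6.81 to 6.95 and 7.09 to 7.25, and hypodermis at 7.32 to 7.35 and 7.42 to 7.64, in wild type and mutants respectively. Of the marker genes, 1 of 12 of intestine was higher and 1 of 8 of pharynx lower by limma with all libraries. Without the pair that stood apart, 3 of 12 of intestine, 4 of 10 of hypodermis and 2 of 10 of neurons were higher. In that setting 1 of 10 of hypodermis and 1 of 8 of pharynx were lower. Calls rose over the whole table as well, from 463 higher and 114 lower of 13965 genes tested to 950 and 350. Germline markers were low in the same pair of libraries, at 4.18 in wild-type replicate 2 and 3.80 in mutant replicate 1 against 4.54 to 4.96 in the others. No marker of any list was at 0 in all libraries, and the part of tissue composition in the values below was not tested.

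*hsp-6* encodes the mitochondrial HSP70, which pulls precursor proteins through the import channel and folds them in the matrix. The gene (WBGene00002010) lies on chromosome V at 4824124 to 4826760 on the minus strand of WBcel235, with 1 annotated transcript of 4 exons. Its level was 329, 389.7 and 339 RPKM in wild-type replicates 1, 2 and 3. In mutant replicates 1, 2 and 3 it was 285, 376 and 380.4 RPKM. The highest value was that of wild-type replicate 2 and the lowest that of mutant replicate 1, and the groups overlapped. The means were 353 ± 32.4 and 347 ± 53.9 RPKM (SD, n = 3 each). The log2 fold change of RPKM + 1, mutant minus wild type, was −0.03 with a 95% confidence interval of −0.37 to 0.31 (limma adjusted p = 0.945). On a linear scale that interval runs from 77.5% to 124% of the wild-type level, so changes within it remain possible. The smallest change that these libraries could have shown was not computed.

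*hsp-60* encodes the mitochondrial chaperonin, a barrel-shaped complex that encloses and folds matrix proteins. The gene (WBGene00002025) lies on chromosome III at 1619742 to 1625803 on the plus strand, with 4 annotated transcripts. It was the most abundant of the 6 transcripts, and its wild-type libraries had 407, 486 and 441 RPKM. The mutant libraries had 299.5, 413 and 425 RPKM. Mutant replicate 1 was below every other library, and mutant replicates 2 and 3 lay within the wild-type range. The means were 444 ± 39.5 and 379 ± 69.0 RPKM (SD, n = 3 each), and the log2 fold change was −0.24 with an interval of −0.61 to 0.12 (limma adjusted p = 0.588). Without mutant replicate 1 the log2 fold change was −0.08, with an interval of −0.31 to 0.15, and without wild-type replicate 2 as well it was −0.02.

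*spg-7* encodes the paraplegin-like AAA protease of the inner membrane, which degrades misfolded proteins on the matrix side. The gene (WBGene00004978) lies on chromosome I at 3467132 to 3478517 on the plus strand and has 1 annotated transcript of 9 exons. Its span is overlapped by 3 genes on the opposite strand, *Y47G6A.14* in part and *Y47G6A.15* and *Y47G6A.36* wholly inside it. These genes share 0 exon bases with *spg-7*. One of them, *Y47G6A.15*, had 549 to 980 RPKM and was high in mutant replicate 1, where *spg-7* was low. For *spg-7* the wild-type libraries had 83.5, 88.2 and 82.2 RPKM. The mutant libraries had 64.9, 85.1 and 91.9 RPKM. The 3 mutant values enclosed all 3 wild-type values. The standard deviation was 3.17 RPKM around a wild-type mean of 84.6 and 14.1 RPKM around a mutant mean of 80.6 (n = 3 each). The log2 fold change was −0.08 with an interval of −0.42 to 0.25 (limma adjusted p = 0.841).

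**Figure D1:**
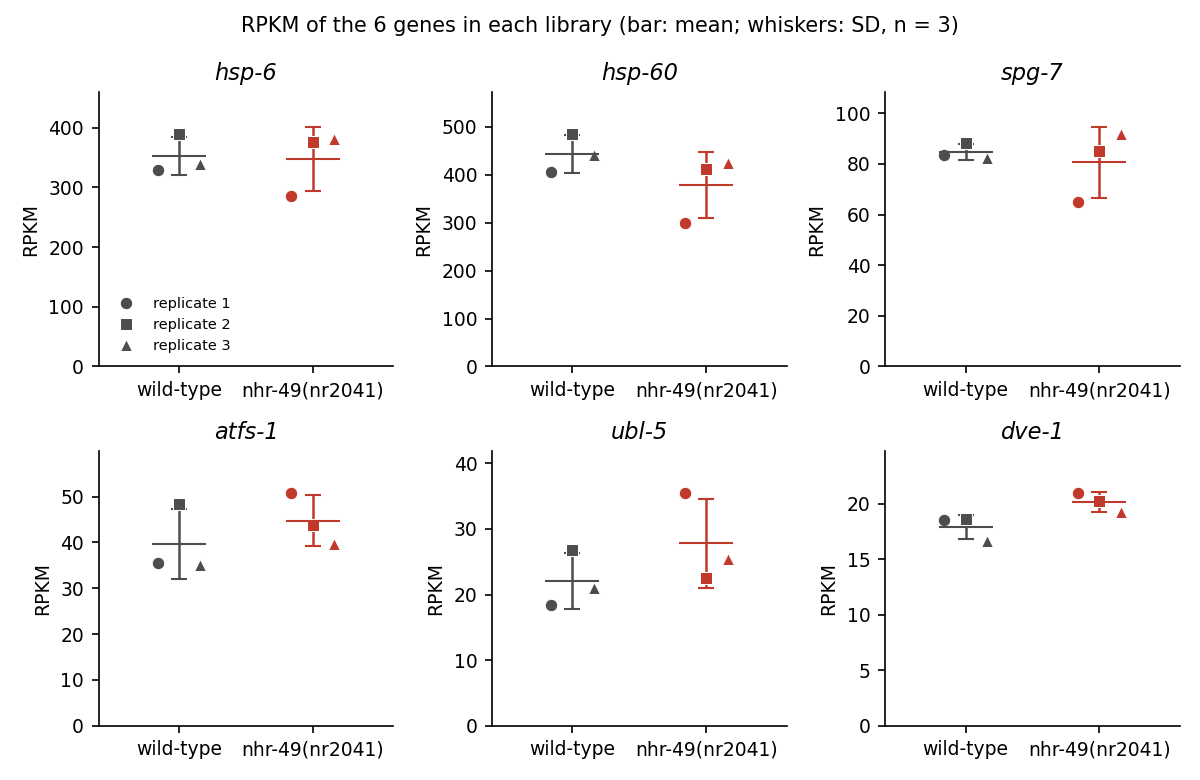
RPKM of *hsp-6*, *hsp-60*, *spg-7*, *atfs-1*, *ubl-5* and *dve-1* in the 3 wild-type (grey) and 3 *nhr-49(nr2041)* (red) libraries. Symbols mark the replicate number, long bars the mean and whiskers the SD (n = 3). Mutant replicate 1 (red circle) is lowest for the 3 genes of the upper row and highest for the 3 genes of the lower row, and the groups are apart for *dve-1* alone.

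*atfs-1* encodes the transcription factor that starts the response. The gene (WBGene00013878) lies on chromosome V at 14193663 to 14197700 on the plus strand, with 7 annotated transcripts that the table does not separate. The wild-type libraries had 35.6, 48.4 and 35.1 RPKM. The mutant libraries had 50.8, 43.8 and 39.7 RPKM. Wild-type replicate 2 stood among the mutants and the other wild-type libraries were below all of them. The means were 39.7 ± 7.56 and 44.8 ± 5.61 RPKM (SD, n = 3 each), and the log2 fold change was 0.18 with an interval of −0.20 to 0.55 (limma adjusted p = 0.688). Without wild-type replicate 2 it was 0.33, with an interval of −0.02 to 0.67 and an adjusted p of 0.357 (limma).

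*ubl-5* encodes a ubiquitin-like protein that binds DVE-1 and is needed for full induction of the chaperone genes. The gene (WBGene00006726) lies on chromosome I at 5607826 to 5608841 on the minus strand, with 2 exons that sum to 327 bases in the annotation, so it is the shortest of the 6. Its wild-type values were 18.4, 26.8 and 20.95 RPKM. The mutant libraries had 35.5, 22.6 and 25.5 RPKM. Wild-type replicate 2 was above mutant replicates 2 and 3, and mutant replicate 1 was above all others. The means were 22.03 ± 4.30 and 27.8 ± 6.77 RPKM (SD, n = 3 each). The log2 fold change, 0.31, had the widest interval of the 6, from −0.16 to 0.79 (limma adjusted p = 0.584). It was 0.13 without mutant replicate 1.

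*dve-1* encodes a homeodomain protein that binds the promoters of the chaperone genes during the response. The gene (WBGene00022861) lies on chromosome X at 427035 to 433812 on the minus strand, with 10 annotated transcripts. Its wild-type values were 18.5, 18.6 and 16.6 RPKM. The mutant libraries had 20.96, 20.2 and 19.2 RPKM. All 3 mutant values were above all 3 wild-type values, although the nearest pair, 18.6 and 19.2 RPKM, was close. The log2 fold change was 0.16 with an interval of −0.10 to 0.42 (limma adjusted p = 0.604). *dve-1* varied least among the mutants, with a coefficient of variation of 4.28% against 12.5% to 24.3% for the other 5 genes.

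With limma, 0 of the 6 genes passed an adjusted p under 0.05, where 4.13% of all genes tested passed, 3.32% higher and 0.816% lower in the mutants. An unadjusted p under 0.05 was reached by 0 of the 6 and by 13.2% of all genes tested. limma voom on whole reads recovered from the RPKM values also called 0 of the 6, with 0 at an unadjusted p under 0.05. Groups that did not overlap were found for 1 of the 6, *dve-1*, against 21.4% of all genes tested. By direction, 17.6% of all genes tested had higher and 3.78% lower values in every mutant library. The median log2 fold change of all genes tested was 0.10, and became −0.04 after quantile normalization and −0.02 with library medians set equal. Relative to the median of all genes, the 6 fold changes ran from −0.35 for *hsp-60* to 0.21 for *ubl-5*. *hsp-6* stood at −0.14, *spg-7* at −0.19, *dve-1* at 0.06 and *atfs-1* at 0.07 on that relative log2 scale. Without mutant replicate 1 the 6 relative values drew together, from −0.16 for *hsp-60* to 0.06 for *dve-1*.

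**Figure D2:**
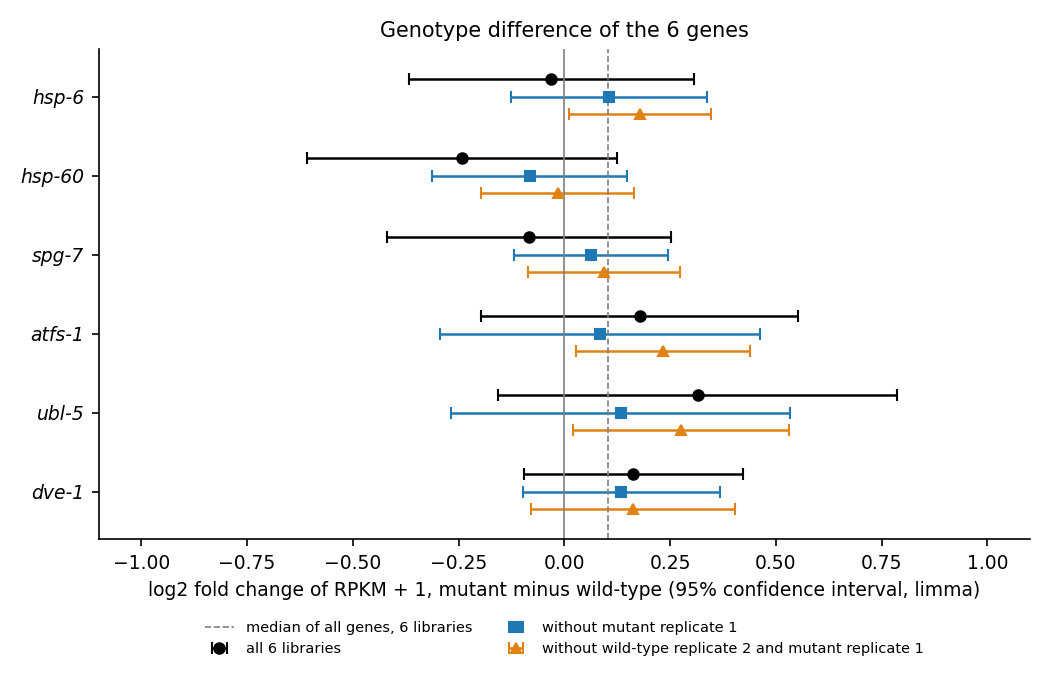
Log2 fold change of RPKM + 1, mutant minus wild type, for each of the 6 genes with its 95% confidence interval from limma: all 6 libraries (black circles), without mutant replicate 1 (blue squares), and without both wild-type replicate 2 and mutant replicate 1 (orange triangles). The dashed line is the median of all genes tested with all 6 libraries, 0.10. With all 6 libraries every interval includes 0. With both libraries left out, the intervals of *hsp-6*, *atfs-1* and *ubl-5* lie just above 0. They include the median of all genes in that setting, 0.048, which is not drawn.

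Leaving out both libraries that stood apart gave *hsp-6* a log2 fold change of 0.18 (interval 0.01 to 0.35), *atfs-1* 0.23 (0.03 to 0.44) and *ubl-5* 0.28 (0.02 to 0.53). These 3 then had an unadjusted p under 0.05, as did 21% of all genes tested in that setting, and 0 of the 6 passed limma after adjustment, with adjusted p of 0.208, 0.176 and 0.198. With those libraries left out, the median log2 fold change of all genes was 0.05, which lies inside each of these 3 intervals. In that setting *hsp-60* was at −0.02 and *spg-7* at 0.09. The direction of *hsp-6* and *spg-7* thus turned with the libraries kept. *atfs-1*, *ubl-5* and *dve-1* stayed above 0 and *hsp-60* below 0 in all 16 alternative settings. The median of all genes was itself above 0 in most settings. Relative to it, *atfs-1* was at −0.002 without wild-type replicate 1 and −0.013 without wild-type replicate 3. *dve-1* was at 0.001 without wild-type replicate 3 on that relative scale.

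The order of the levels was the same in both genotypes. By mean RPKM it ran from *hsp-60* through *hsp-6*, *spg-7*, *atfs-1* and *ubl-5* to *dve-1*. The chaperones were abundant transcripts, with 97.8% of tested genes below *hsp-60* and 97.5% below *hsp-6*. *spg-7* stood above 90.4% of tested genes, *atfs-1* above 82.1%, *ubl-5* above 71.7% and *dve-1* above 64.5%. Most steps in this order were larger than the spread between libraries. The exceptions were *ubl-5* and *dve-1* in the wild type, whose ranges overlapped between 18.4 and 18.6 RPKM, and *hsp-60* and *hsp-6* in the mutants, whose ranges overlapped although *hsp-60* was the higher of the pair in 6 of 6 libraries. The gene lengths that the RPKM values imply were close to the merged exon lengths of Ensembl release 115 for *hsp-6*, 2446 against 2460 bases, and shorter for *spg-7*, 2373 against 2919 bases, and *dve-1*, 2370 against 3319 bases.

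The spread between libraries was set beside the spread that sampling of reads alone would give. *hsp-60* had 156247 recovered reads over the 6 libraries, *hsp-6* 144666, *spg-7* 33181, *atfs-1* 13451, *dve-1* 7564 and *ubl-5* 1370. For *hsp-60* the coefficient of variation between libraries was 8.88% in the wild type and 18.2% in the mutants, against 0.589% and 0.671% from counting alone. For *ubl-5*, the gene with the fewest reads, it was 19.5% and 24.3% against 6.94% and 6.45%. For *dve-1*, the least variable in the mutants, it was 6.21% and 4.28% against 2.85% and 2.79%, so counting made up a larger part of the spread there. For all 6 genes the spread between libraries of 1 genotype was larger than that from counting.

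Mutant replicate 1 was low for 3 of the 6 genes and high for the other 3. Against the mean of the other mutant libraries it was 24.7% lower for *hsp-6*, 28.5% lower for *hsp-60* and 26.7% lower for *spg-7*, the 3 genes whose products fold or degrade proteins in mitochondria. It was 21.7% higher for *atfs-1*, 47.7% higher for *ubl-5* and 6.2% higher for *dve-1*, the 3 regulators. Other genes of these roles went the opposite way in this library, such as the protease gene *clpp-1*, with 71.0 RPKM against 45.8 and 44.6 RPKM in the other mutant libraries, and the regulator *zip-3*, with 28.8 RPKM against 37.0 and 43.9 RPKM. Wild-type replicate 2 was above the mean of the other wild-type libraries for all 6 genes, by 16.6% for *hsp-6*, 14.6% for *hsp-60*, 6.5% for *spg-7*, 37.0% for *atfs-1*, 36.1% for *ubl-5* and 5.9% for *dve-1*.

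Gene length moved with these deviations across the whole table, a check chosen after the values were seen. Among 11194 genes with at least 600 reads in all, the median log2 deviation of mutant replicate 1 from the other mutant libraries was 0.49 for genes of up to 500 bases, 0.04 between 1500 and 2000 bases, −0.06 between 2000 and 2500 bases and −0.25 above 4000 bases. The other 5 libraries had medians from −0.24 to 0.16 for the shortest genes and from −0.08 to 0.15 for the longest. *ubl-5*, the shortest of the 6, deviated by 0.55 in mutant replicate 1, above 56.8% of genes in its length class. *atfs-1* deviated by 0.28, above 74.2% of its class. *hsp-6*, *hsp-60*, *spg-7* and *dve-1* all fell in the class of 2000 to 2500 bases. Of these, *hsp-6* deviated by −0.41, *hsp-60* by −0.48 and *spg-7* by −0.44, with 20.7%, 15.7% and 18.7% of the class below them, while *dve-1* deviated by 0.08 with 64.2% below it. Genes of like length thus went both ways, and the part of length in the values of these genes was not tested.

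**Figure D3:**
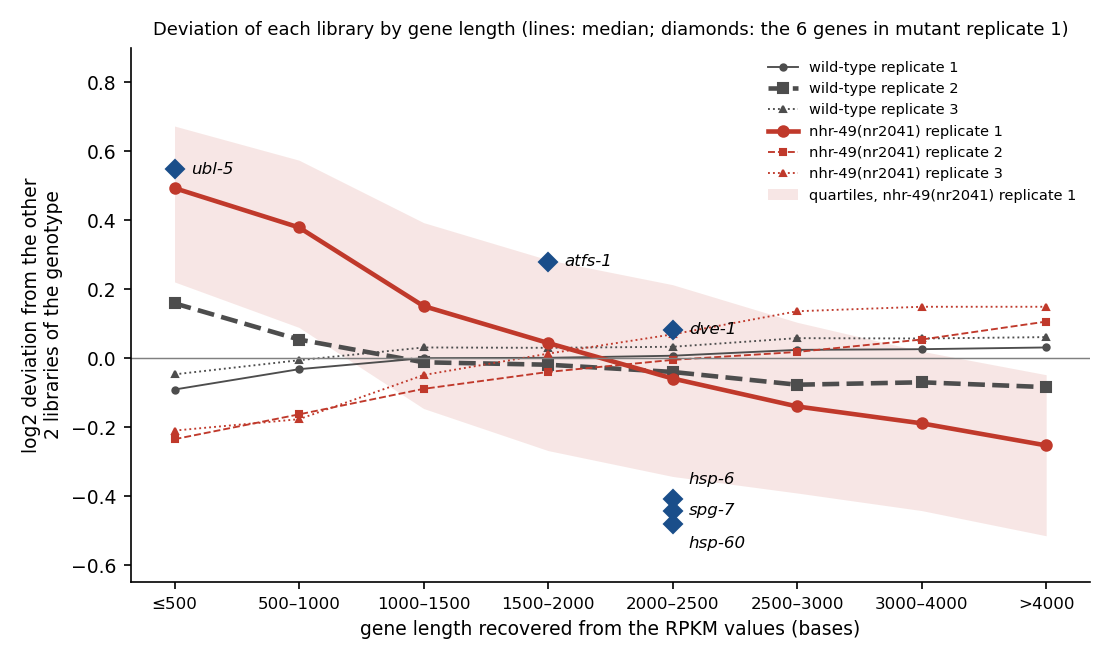
Median log2 deviation of each library from the other libraries of its genotype, by class of gene length (bases, recovered from the RPKM values), with the quartiles of mutant replicate 1 shaded and the 6 genes in that library as diamonds. The line of mutant replicate 1 descends from 0.49 in the shortest class to −0.25 in the longest; *hsp-6*, *spg-7* and *hsp-60* lie below the shaded band, and *ubl-5*, *atfs-1* and *dve-1* within it.

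The chaperones were next compared with each other within each library, where a shared scale cancels. The log2 ratio of *hsp-6* to *hsp-60* was −0.31, −0.32 and −0.38 in the wild-type libraries. In the mutant libraries it was −0.07, −0.13 and −0.16. All mutant ratios were above all wild-type ratios, with means of −0.12 ± 0.04 and −0.33 ± 0.04 (SD, n = 3 each). In linear terms there were 0.770 to 0.809 *hsp-6* for each *hsp-60* in the wild type and 0.896 to 0.952 in the mutants, per unit length. The difference of 0.21 had an exact two-sided permutation p of 0.1, the smallest that 3 against 3 libraries can give, and stayed between 0.19 and 0.23 with any 1 library left out. Ratios to *hsp-60* that lay above the wild type in all mutant libraries were common, however, at 29.8% of 13859 genes, against 0.902% that lay below. *spg-7* was among them, with a difference of 0.16 in its log2 ratio to *hsp-60* (exact permutation p = 0.1). A ratio that differs shows unequal change and does not tell which of the pair moved.

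The partners that HSP-6 and HSP-60 need for their folding cycles were compared with them in the same way. The HSP10 gene *Y22D7AL.10*, which encodes the lid of the chaperonin, had log2 ratios to *hsp-60* of 0.17, 0.28 and 0.08 in the wild type. Its mutant ratios were 0.86, 0.34 and 0.19, so the groups overlapped and mutant replicate 1 was far above the rest. *dnj-10*, a DNAJ co-chaperone of mitochondrial HSP70, had log2 ratios to *hsp-6* of −3.06 to −2.96 in the wild type, and −2.41, −3.07 and −3.01 in the mutants. *C34C12.8*, the GrpE-type nucleotide exchange factor, had −2.02 to −1.88 in the wild type, and −1.18, −2.05 and −2.08 in the mutants. For both, mutant replicate 1 was high and the other mutant libraries lay at or beside the wild-type values. With 3 against 3 libraries the exact permutation p cannot go below 0.1, so none of the 7 ratios computed could have passed 0.05. The Benjamini-Hochberg adjusted p of the *hsp-6* to *hsp-60* ratio over these 7 was 0.35 (exact permutation test), which decides nothing for the same reason.

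**Figure D4:**
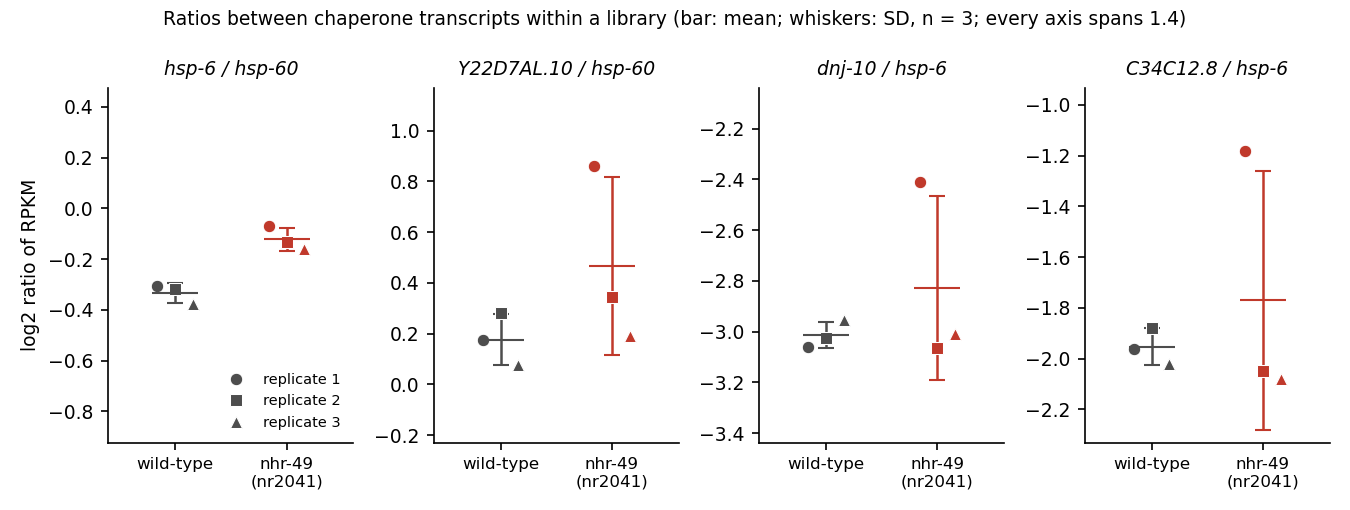
Log2 ratio of RPKM within each library for *hsp-6* to *hsp-60*, *Y22D7AL.10* (HSP10) to *hsp-60*, *dnj-10* to *hsp-6* and *C34C12.8* (GrpE) to *hsp-6*. Symbols mark the replicate, bars the mean and whiskers the SD (n = 3); all axes span the same length. The *hsp-6* to *hsp-60* ratio is apart between genotypes, at −0.38 to −0.31 and −0.16 to −0.07, whereas in the other 3 panels mutant replicate 1 stands alone above overlapping groups.

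The rest of the pathway was described by lists of genes with known roles, as counts beside the median of all genes. For comparison, 4.13% of all genes tested passed limma and 13.2% had an unadjusted p under 0.05. Of 12 further regulators of the response, 0 passed limma in either direction and 0 had an unadjusted p under 0.05, with a median log2 fold change of −0.06 that was 0.07 without mutant replicate 1 and 0.01 without wild-type replicate 2 as well. *clpp-1*, a matrix protease that cuts proteins into peptides, had 40.3 to 42.6 RPKM in the wild type and 71.0, 45.8 and 44.6 RPKM in the mutants. Its groups did not overlap, and its adjusted p was 0.489 (limma). *zip-3*, a bZIP factor that holds ATFS-1 activity down, had 42.8 to 44.3 RPKM in the wild type and 28.8, 37.0 and 43.9 RPKM in the mutants (limma adjusted p = 0.548). The histone demethylase gene *jmjd-3.1*, which promotes the response, had log2 fold change 0.21, and *rheb-1*, which encodes the GTPase that activates TOR, had 0.25, neither past the test.

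Of 17 chaperone cofactors and proteases, 0 passed limma in either direction, with 0 at an unadjusted p under 0.05 and a median log2 fold change of 0.06 that was 0.11 without both libraries that stood apart. *Y22D7AL.10* had 459 to 589 RPKM in the wild type and 485 to 544 RPKM in the mutants, an abundance like that of its partner *hsp-60*. *lonp-1*, the matrix Lon protease, was at −0.06 and *ymel-1*, the inner membrane protease that faces the intermembrane space, at 0.06 on the log2 scale. The prohibitin genes *phb-1* and *phb-2*, whose products form a ring in the inner membrane, were at −0.01 and 0.14. *stl-1*, a stomatin-like gene, and *immp-1*, an inner membrane peptidase, had higher values in all mutant libraries, with log2 fold changes of 0.37 and 0.40. *mppa-1*, a subunit gene of the protease that removes targeting sequences, had lower values in all of them, at −0.25, and none of these 3 passed limma (adjusted p = 0.452, 0.413 and 0.413).

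Of 18 tested genes of protein import, 0 passed limma after adjustment and 1 had an unadjusted p under 0.05, with a median log2 fold change of 0.16 that was 0.04 without mutant replicate 1 and 0.11 without both. That gene was *timm-17B.2*, a paralogue of the import channel subunit TIM17. It had 4.68 to 5.88 RPKM in the wild type and 11.7, 9.87 and 7.49 RPKM in the mutant libraries. Its groups were apart, and its log2 fold change was 0.75 (limma adjusted p = 0.0912). Small TIM and TOM genes had high values in mutant replicate 1, such as *tin-10* with 84.9 RPKM against 52.1 and 43.1 RPKM in the other mutant libraries and *tomm-7* with 163 RPKM against 107 and 127 RPKM.

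Of 66 mitochondrial ribosomal protein genes, 0 passed limma in either direction and 0 had an unadjusted p under 0.05. Their log2 fold changes ran from −0.22 for *mrpl-41* to 0.28, with a median of 0.09 that was −0.03 without mutant replicate 1 and 0.01 without both libraries. Of 12 genes of mitochondrial dynamics and mitophagy, 0 passed after adjustment and 2 had an unadjusted p under 0.05, with a median of 0.24 that was 0.09 without mutant replicate 1. The pair were *drp-1*, the dynamin of mitochondrial fission, with 35.4 to 36.8 RPKM in the wild type and 41.6, 44.05 and 43.99 RPKM in the mutants, and *allo-1*, an autophagy adaptor for paternal mitochondria. Both had groups that did not overlap, with log2 fold changes of 0.26 and 0.41 and adjusted p of 0.301 and 0.179 (limma).

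Of 5 tested genes from a list of published ATFS-1 targets outside the 6, 2 were higher in the mutants and 0 lower. Of all genes tested, 3.32% were higher. The list was chosen with earlier results of these data known, and the study names both of the higher genes as changed in this mutant. The count is therefore a description and not a test of the list. Another listed target, *abf-2*, had at most 0.098 RPKM in any library and was not tested. *clec-4*, a C-type lectin gene, went from 8.39, 10.3 and 8.57 RPKM in the wild type to 95.9, 104 and 109 RPKM in the mutant libraries. *lys-2*, a lysozyme gene, went from 211, 232 and 188 RPKM in the wild type to 678, 535 and 508 RPKM in the mutant libraries. The groups were far apart for both, with log2 fold changes of 3.37 (limma adjusted p = 7.13e-06) and 1.44 (limma adjusted p = 0.00101). Both genes encode secreted proteins of innate immunity and neither acts in mitochondria. The import channel genes *timm-23* and *timm-17B.1* had log2 fold changes of 0.04 and 0.16 and the glycolytic gene *gpd-2* had 0.03, with 0 of these 3 past limma.

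**Figure D5:**
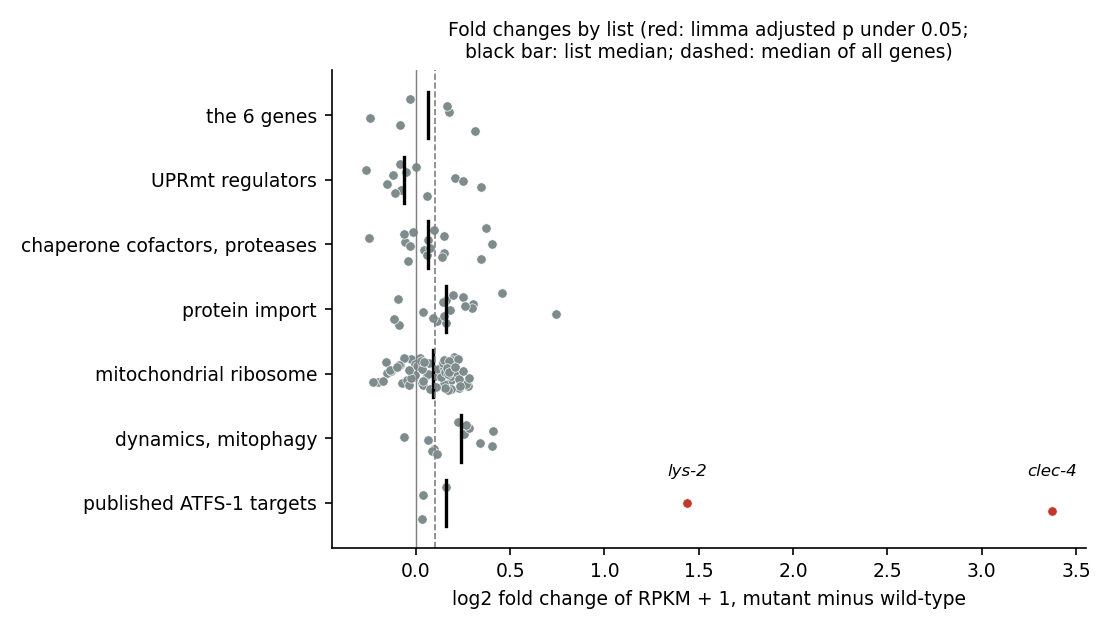
Log2 fold change of RPKM + 1, mutant minus wild type, of the 6 genes and of the tested genes in each of 6 lists. The list of published ATFS-1 targets includes genes that do not act in mitochondria. Black bars are list medians, the dashed line is the median of all genes tested (0.10), and red points passed limma at an adjusted p under 0.05. The red points are *clec-4* at 3.37 and *lys-2* at 1.44, both from the list of targets and neither acting in mitochondria. All other points lie between −0.26 and 0.75.

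Over the 6 lists together, 2 of 127 tested genes passed limma, which is 1.57% against 4.13% of all genes tested, and their median log2 fold change was 0.10. limma voom also called 2. An unadjusted p under 0.05 was reached by 5 of the 127, against 13.2% of all genes tested (limma).

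Among 9 genes of the HSP70 and HSP110 families outside mitochondria, 0 passed limma in either direction and 1, *hsp-70*, had an unadjusted p under 0.05. Their median log2 fold change was −0.12, and was −0.01 without mutant replicate 1 and −0.07 without both libraries. *hsp-70* was lower in every mutant library, at 0.567 to 0.906 RPKM against 1.46 to 3.43 RPKM in the wild type. These values lie near the filter of 1 RPKM, and the log2 fold change of *hsp-70* was −0.765 (limma adjusted p = 0.228). The abundant cytosolic gene *hsp-1* was low in mutant replicate 1, with 904 RPKM there against 1380 and 1518 RPKM in the other mutant libraries. *hsp-4*, which encodes an HSP70 of the endoplasmic reticulum, was also lowest there among the mutants, with 168 RPKM against 206 and 226 RPKM. So were *hsp-3*, *hsp-70* and *hsp-110*. Other genes of the list did not follow. *stc-1*, with 62.3 RPKM against 49.5 and 52.1 RPKM, and *F11F1.1* were highest in that library among the mutants, and *F44E5.4* and *F44E5.5* lay between the other mutant libraries.

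The genes most like each of the 6 over the 6 libraries were ranked by Pearson's r of log2(RPKM + 1) among 7508 genes with a mean of at least 10 RPKM. The 6 points share 2 libraries that stand apart, and many genes reach a high r. For *hsp-6* the nearest was *C06G1.5* at r = 0.990, followed by *W03A5.6* and *pyk-1*, a pyruvate kinase gene, and 84 genes exceeded 0.9. For *hsp-60* they were *rla-0*, a ribosomal protein gene, at 0.995, *cct-1*, a subunit gene of the cytosolic chaperonin, at 0.991 and *aco-2*, the mitochondrial aconitase gene, at 0.990. *rla-0* had 2943, 3432 and 3201 RPKM in the wild type and 2359, 3090 and 3140 RPKM in the mutants, the same pattern of a single low mutant library as *hsp-60*. For *spg-7* they were *dcap-1*, an mRNA decapping subunit gene, at 0.990, *clu-1* and *B0035.1*.

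The regulators had other neighbours. For *atfs-1* they were the prohibitin gene *phb-2* at r = 0.996, the kinase gene *mak-1* at 0.993 and *cco-2*, a cytochrome c oxidase subunit gene, at 0.992. *phb-2* had 227, 286 and 225 RPKM in the wild type and 304, 265 and 242 RPKM in the mutants, high in wild-type replicate 2 and mutant replicate 1 as *atfs-1* was. For *ubl-5* the nearest were *F57B10.14* at 0.998, the phosphatase gene *gsp-2* and *F33G12.7*, and 765 genes exceeded 0.9, the most of the 6. For *dve-1* they were *T19D7.6*, *T03F7.7* and *gna-1*, at 0.983 to 0.987. *T03F7.7* had 13.4, 13.5 and 10.5 RPKM in the wild type and 21.1, 19.5 and 16.3 RPKM in the mutants, with limma giving a log2 difference of 0.57 at an adjusted p of 0.114.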

How the data were processed

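The deposited values are RPKM per gene and library, which the authors made before deposit, with 1 mean per genotype that equalled the mean of its 3 libraries within a relative difference of 3.2e-14. WBcel235 is the genome build in the submitters' processing notes. For the mapper, its parameters and the gene models, the entry is: not given in the sources used here. In the study, genotypes were compared in CLC Genomics Workbench with FDR-corrected Baggerly tests, which were not used here.

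RPKM were tested on log2(RPKM + 1) with limma 3.58.1 (trend and robust, statmod 1.5.0, R 4.3.3) over the 13965 genes that reached 1 RPKM in 3 or more libraries, with genotype as the only term, Benjamini-Hochberg adjustment over all of them, and an adjusted p under 0.05 counted as changed. On this scale the fold change of a low gene is understated. The limma p-values set the genotype difference against the spread between these libraries, which is estimated for each gene with help from all genes tested. Whole reads, within 0.01 of a read, were recovered for 100.0% of the 19579 genes above 0 by solving for library totals and gene lengths. They covered 95.38% to 97.93% of the totals and served limma voom (median-of-ratios scaling) as an alternative. Counting errors do not include biological or library variation. Ratios were tested with exact permutation tests in Python 3.11.15 with scipy 1.17.1. Fits were tested on simulated data. Alternatives were quantile normalization, library medians set equal, no filter, a filter at 5 RPKM, pseudocounts of 0.1 and 0.5, the replicate number as a block, limma without trend and robust, each library left out, and wild-type replicate 2 with mutant replicate 1 left out.

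The 6 genes, the lists and the tissue markers were chosen with earlier results of these data known. Named genes are the 6, up to 4 per list with the smallest p, all past the adjusted p, the 3 most alike to each of the 6, and *nhr-49*; cofactors, proteases and HSP70 genes named beside these, the ratios after the first, the length classes and the share of genes without the pair of libraries were chosen after values were seen. Coordinates and current names come from Ensembl release 115.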

Additional observations from a re-analysis of the deposited data

How the results depend on the processing

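None of the 6 genes passed limma in any of the 16 alternatives to the test of each. The log2 fold change of *hsp-6*, −0.03 with all libraries, turned to 0.043 without wild-type replicate 2, 0.105 without mutant replicate 1 and 0.179 without both (limma adjusted p = 0.208). That of *spg-7*, −0.08, turned to 0.064 without mutant replicate 1 and 0.094 without both. With each library left out in turn, the log2 fold change ran from −0.10 to 0.11 for *hsp-6*, −0.33 to −0.08 for *hsp-60*, −0.19 to 0.06 for *spg-7*, 0.09 to 0.33 for *atfs-1*, 0.13 to 0.46 for *ubl-5* and 0.11 to 0.19 for *dve-1*. Over all alternatives the limma adjusted p of the 6 lay between 0.176 and 0.97. Without both libraries *tin-9.1* and *hsp-4* passed limma, and 950 genes in all were higher and 350 lower, against 463 and 114 with all libraries and 319 and 63 without wild-type replicate 3. The 2 calls in the other lists, *clec-4* and *lys-2*, were made in every setting. The labels number the replicates in both genotypes but tie no numbers together, and the deviations of same-numbered libraries correlated at −0.33, −0.16 and 0.34, so they were not treated as pairs. With the replicate number as a block, *hsp-6* had an adjusted p of 0.944 (limma) and 0 of the 6 genes passed. In that setting 332 genes were higher and 64 lower, and no call in the other lists changed. *nhr-49* itself then had an adjusted p of 0.0965 (limma). That p was 0.093, 0.0551 and 0.0832 without wild-type replicates 1, 2 and 3 and 0.0821 without mutant replicate 2, and under 0.05 in every other setting. What the data can show is limited by the spread between 3 libraries per genotype, 1 strain each. Counting adds most for *ubl-5*, with 183 to 287 reads a library, and it makes up the largest share of the spread for *dve-1* in the mutants, 2.79% of a 4.28% coefficient of variation.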
